A study of Mus musculus with 2 samples.

Results

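Reactive gliosis genes are the genes that glia switch on after injury, and the 10 described here, of 25778 genes in the count table, are Gfap, Vim, Lgals3, Cd44, Serpina3n, Lcn2, Edn2, Fgf2, Stat3 and Socs3. They were chosen by name, as widely used indicators of a reactive state. Retinas were taken at 30 days of age from 1 mouse of each genotype, the control Chx10-Cre;Ptbp1+/+ (Ptbp1-Ctrl, labelled Chx10Cre) and the mutant Chx10-Cre;Ptbp1lox/lox (Ptbp1-KO), dissociated with papain and profiled by 10x Genomics 3' single-cell RNA sequencing. Both mice carried the Chx10-Cre transgene, which expresses a Cre-GFP fusion in retinal progenitors, from which neurons and Müller glia (MG) alike descend. In Ptbp1-KO mice, Cre removes the promoter and first exon of Ptbp1, which encodes a repressor of neuron-specific exons. The comparison asks whether the MG left without Ptbp1 look reactive. With 1 mouse and 1 library per genotype there is no replicate, so the genotype, the mouse, the dissociation and the library cannot be told apart, and no test between the genotypes was run.

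MG are the radial glia that span the retina, recycle glutamate and buffer potassium. After photoreceptor damage, mouse MG enlarge, strongly raise the intermediate filament GFAP, and turn on secreted and surface proteins in what is called reactive gliosis. Much of this response runs through cytokines that signal by the receptor subunit gp130 and the kinase JAK to the transcription factor STAT3, and SOCS3 is the feedback inhibitor that STAT3 induces. Stressed photoreceptors are a known source of endothelin 2, and fibroblast growth factor 2 is known as a survival factor for them.

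The MG comprised 1720 cells with 5906017 unique molecular identifiers (UMIs, single captured RNA molecules) in Ptbp1-Ctrl and 1184 cells with 5085747 UMIs in Ptbp1-KO. Their median depth was 3333 and 4178 UMIs per cell, and the median mitochondrial share was 2.59% and 1.97%. Levels are UMIs of a gene per 1000000 UMIs summed over the MG of a library (CPM). They are not scaled to gene length, so they are compared between libraries and cell types but not between genes. All intervals are exact at 95% and cover counting error only. Ptbp1 gave 294 UMIs in the Ptbp1-Ctrl MG and 6 in the Ptbp1-KO MG, which matches the genotype labels. The 12 resting MG genes were all detected in both libraries, and none differed by 1.5-fold, from Sox9 at a log2 ratio of -0.24 and Rdh10 at -0.02 to Slc1a3 at 0.20 and Clu at 0.32. The study's methods give female mice, but the Y-linked genes Uty, Eif2s3y, Ddx3y and Kdm5d each had between 1413 and 7085 UMIs in either library, against 5 and 6 UMIs of Xist. The libraries shared 63 cell barcodes, of which 8 and 5 were MG, and leaving those cells out left the count of members past 1.5-fold at 2 higher and 1 lower.

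Of the 10 genes, 8 had at least 20 UMIs over both libraries in MG. Among these, 2 were at least 1.5-fold higher in Ptbp1-KO MG (Gfap and Lgals3), where 7.16% of all 14016 genes with that many UMIs were, and 1 was at least 1.5-fold lower (Lcn2), where 4.92% were. Their median log2 ratio of Ptbp1-KO over Ptbp1-Ctrl was 0.15, and that of all 14016 genes was 0.00. Only Lgals3 among the 10 combined a ratio past 1.5-fold with more than 100 UMIs in each library. Gfap, the defining filament of gliosis, was detected in fewer than 2% of the MG of either library.

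The intermediate filament genes Gfap (chr11:102887336-102900912, minus strand, mm10) and Vim (chr2:13573927-13582826, plus strand) are taken first, since the proteins they encode build the scaffold of a reactive glial cell. Gfap gave 26 UMIs in the Ptbp1-Ctrl MG, a level of 4.40 CPM (interval 2.88 to 6.45), and 35 in the Ptbp1-KO MG, a level of 6.88 CPM (4.79 to 9.57). The log2 ratio was 0.64 with an interval from -0.13 to 1.43, which spans 0, so a difference was not detectable at this depth. A Gfap UMI was found in 15 of 1720 Ptbp1-Ctrl MG (0.872%, interval 0.489 to 1.43) and in 21 of 1184 Ptbp1-KO MG (1.77%, 1.10 to 2.70). With every cell thinned to 1000 UMIs, the shares were 0.481% (8 of 1663 cells) and 0.341% (4 of 1173 cells), the reverse order, from too few cells to tell the libraries apart. Rods, which are not known to make Gfap and had median depths of 1088 and 1288 UMIs, gave 0.0339% and 0.0648% at the same thinned depth. As CPM, Gfap was above the rod level (0.460 and 0.966) in the MG of both libraries, but at equal depth the shares of MG and rods overlapped in Ptbp1-KO. No MG held more than 6 Gfap UMIs in Ptbp1-Ctrl or 4 in Ptbp1-KO.

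Vim, the filament that MG also hold at rest, gave 2848 UMIs (482 CPM, interval 465 to 500.3) in Ptbp1-Ctrl MG and 2482 UMIs (488 CPM, 469 to 508) in Ptbp1-KO MG. The levels overlapped, with a log2 ratio of 0.02 (-0.06 to 0.09). A Vim UMI was present in 67.4% and 74.6% of MG, and in 34.0% and 36.5% once each cell was thinned to 1000 UMIs, with rods at 0.457% and 0.632%.

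**Figure D1:**
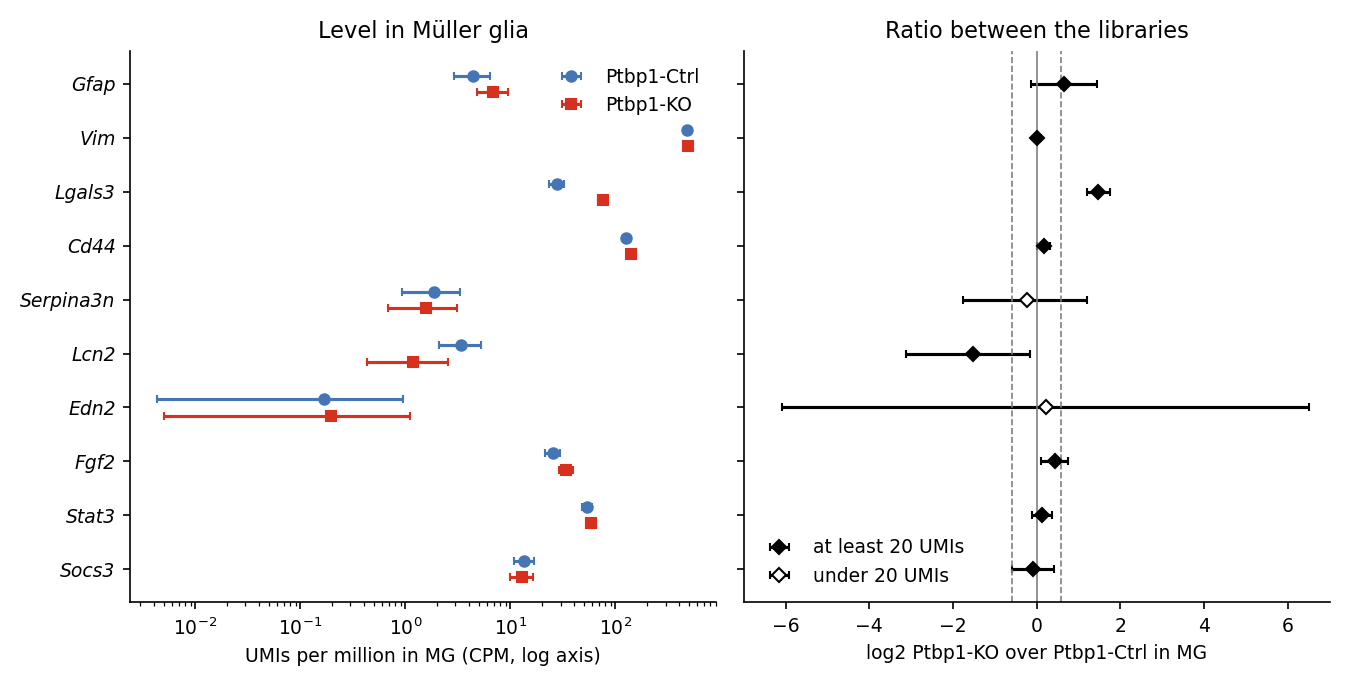
Level and ratio of the 10 reactive gliosis genes in MG. Left, CPM on a log axis in the Ptbp1-Ctrl (blue circles) and Ptbp1-KO (red squares) library with exact 95% Poisson intervals; right, log2 of Ptbp1-KO over Ptbp1-Ctrl with exact 95% intervals, dashed lines at 1.5-fold and open symbols for genes under 20 UMIs. Lgals3 stands past the dashed line with its whole interval, Vim lies on 0, and Edn2 and Serpina3n have wide intervals from few UMIs.

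Lgals3 (chr14:47367751-47386160, plus strand) encodes galectin-3, a lectin of glia and phagocytes that binds sugar chains. It gave 163 UMIs in the Ptbp1-Ctrl MG, 27.6 CPM (23.5 to 32.2), and 388 in the Ptbp1-KO MG, 76.3 CPM (68.9 to 84.3). The intervals did not overlap, and the log2 ratio was 1.47 (1.20 to 1.74). More cells held the transcript: 146 of 1720 MG (8.49%, 7.21 to 9.91) in Ptbp1-Ctrl and 299 of 1184 (25.3%, 22.8 to 27.8) in Ptbp1-KO. At 1000 UMIs per cell the shares were 2.77% (2.03 to 3.67) and 6.39% (5.06 to 7.95), still apart, and rods were at 0.0339% and 0.0810%. The cells with a UMI held 1.12 and 1.30 Lgals3 UMIs on average, and cells with 2 or more numbered 13 and 69. The higher level was thus spread over many cells with 1 or a few UMIs each, and no cell had more than 3 in Ptbp1-Ctrl or 5 in Ptbp1-KO. Under the 9 alternatives that gave a ratio for single genes, the log2 ratio of Lgals3 stayed between 1.22 and 1.66.

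Because galectin-3 is also abundant in microglia and macrophages, the markers of those cells were read in the same MG. Of 13 markers, 3 had at least 20 UMIs, C1qb and Tyrobp were at 0 in both libraries, and all 13 summed to 73.1 CPM in the control and 78.8 CPM in the knockout. P2ry12 had 170 and 161 UMIs and Cx3cr1 30 and 39, while C1qa had 1 and 4 UMIs, Csf1r 1 and 0, and Ptprc 2 and 0. Cx3cr1 was past 1.5-fold, with a log2 ratio of 0.59 and an interval from -0.13 to 1.33. None of the 146 and 299 MG with a Lgals3 UMI had a UMI of C1qa, C1qb, Tyrobp, Csf1r or Ptprc, which allows a share of cells with a UMI of up to 2.05% for each gene in Ptbp1-Ctrl and does not limit cells that express it undetected.

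Cd44 (chr2:102811141-102901665, minus strand) encodes a surface receptor for hyaluronan that sits on the apical processes of MG. It gave 745 UMIs (126 CPM, 117 to 136) in Ptbp1-Ctrl and 719 (141 CPM, 131 to 152) in Ptbp1-KO. The intervals overlapped slightly, and the log2 ratio of 0.16 (0.01 to 0.31) was well short of 1.5-fold. A Cd44 UMI was seen in 33.8% and 43.2% of MG, in 11.2% and 13.9% at equal depth, with overlapping intervals, and in 0.356% and 0.259% of rods at that depth.

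Serpina3n (chr12:104406729-104414329, plus strand) encodes a secreted protease inhibitor, and Lcn2 (chr2:32384633-32388252, minus strand) encodes lipocalin 2, a secreted iron carrier; both are among the most strongly induced transcripts of reactive astrocytes. Serpina3n gave 11 UMIs in Ptbp1-Ctrl MG and 8 in Ptbp1-KO MG, or 1.86 and 1.57 CPM, with a log2 ratio of -0.24 (-1.76 to 1.21). These UMIs came from 3 cells of Ptbp1-Ctrl, 1 of them with 5, and from 4 cells of Ptbp1-KO, 1 of them with 4. Serpina3n has close paralogs beside it in the genome, so reads could have been split between copies in the counting. Lcn2 gave 20 UMIs (3.39 CPM, 2.07 to 5.23) in Ptbp1-Ctrl and 6 (1.18 CPM, 0.433 to 2.57) in Ptbp1-KO, with the log2 ratio at -1.52 (-3.13 to -0.15). A single Ptbp1-Ctrl cell held 9 of the 20, and only 8 and 5 MG held any. Without the 1 cell of each library with the most UMIs, an alternative chosen after seeing the data, the Lcn2 ratio was -1.24. At 1000 UMIs per cell it was -0.08, with 2 cells left in each library. At that depth a Lcn2 UMI was found in 0.120% and 0.171% of MG and in 0.339% and 0.470% of rods. The intervals of MG and rods overlapped, so the MG share was not above that of rods. Whether the rod UMIs are free RNA was not tested.

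Edn2 (chr4:120161206-120167360, plus strand) encodes endothelin 2, a peptide signal from stressed photoreceptors to MG. It gave 1 UMI in MG of each library. In rods it gave 9 and 10 UMIs in the 2 libraries, a level of 0.690 CPM in both (0.316 to 1.31 and 0.331 to 1.27). At 1000 UMIs per cell no MG had an Edn2 UMI. By the floor of 3 counts this allows up to 0.180% of cells with a UMI in Ptbp1-Ctrl and 0.256% in Ptbp1-KO, with exact upper limits of 0.222% and 0.314%, and says nothing of cells that express Edn2 undetected.

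Fgf2 (chr3:37348346-37410108, plus strand) encodes basic fibroblast growth factor. In MG it gave 150 UMIs (25.4 CPM, 21.5 to 29.8) in Ptbp1-Ctrl and 174 (34.2 CPM, 29.3 to 39.7) in Ptbp1-KO. The log2 ratio was 0.43 (0.11 to 0.76), above 0 beyond counting error and under 1.5-fold. Its share of MG was 7.67% and 12.4%, and at equal depth 2.22% (1.57 to 3.05) and 2.98% (2.09 to 4.13), which overlapped. Fgf2 was also higher in the rods of Ptbp1-KO, with 91 UMIs (6.98 CPM, 5.62 to 8.57) against 178 (12.3 CPM, 10.5 to 14.2) and a log2 ratio of 0.82 (0.44 to 1.20). The share of rods with Fgf2 at equal depth was 0.525% (0.357 to 0.745) and 1.39% (1.12 to 1.72). The gene overlaps Nudt6, Fgf2os and Gm42923 on the opposite strand and Gm43439 on the same strand, from which a strand setting could not separate it. Nudt6 had 21 and 32 UMIs in MG, and whether the counting used strand was not given in the sources used here.

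Stat3 (chr11:100885098-100939540, minus strand, overlapping Stat5a on the other strand) gave 317 UMIs (53.7 CPM, 47.9 to 59.9) in Ptbp1-Ctrl MG and 298 (58.6 CPM, 52.1 to 65.6) in Ptbp1-KO MG. The levels overlapped, with a log2 ratio of 0.13 (-0.11 to 0.36). At equal depth 6.25% and 5.37% of MG and 3.30% and 3.82% of rods had a Stat3 UMI. Socs3 (chr11:117966079-117970047, minus strand), whose transcript serves as a readout of active STAT3, gave 80 UMIs (13.5 CPM, 10.7 to 16.9) and 65 (12.8 CPM, 9.86 to 16.3). Its log2 ratio was -0.08 (-0.58 to 0.41). Socs3 was found in 47 Ptbp1-Ctrl MG and 44 Ptbp1-KO MG, up to 6 UMIs in one cell of each library, and at equal depth in 1.14% and 1.36% of MG against 0.0169% and 0.0162% of rods.

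Because STAT3 acts by binding DNA, the RefSeq promoter windows (GRCm38.p6, 250 bases before to 50 after the start) of all 10 genes were searched for the STAT core motif TTCNNNGAA, which reads the same on both strands. It occurred in 2 of the 10, Gfap and Socs3, and in 8.30% of the 32851 promoters in the table. The stricter form TTCCNGGAA, which is contained in the first, occurred in Gfap alone and in 1.15% of all promoters. The pair of stretches is shown because these are the filament and the feedback inhibitor that STAT3 is known to induce, on the minus strand of chr11:102897184-102897212 and chr11:117969502-117969530, with the motif in capitals.
Gfap: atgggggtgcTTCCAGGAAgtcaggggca
Socs3: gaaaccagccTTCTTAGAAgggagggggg
The motif began 2 bases before the RefSeq start of Gfap and 154 bases before that of Socs3, and both stretches lie inside the longer GENCODE spans of these genes given above. A match is a run of letters and not a measured binding site.

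Genes detected in few MG were then read together in the same cells. Of the 15 Ptbp1-Ctrl MG with Gfap, 4 also had Socs3, against 2.52% of the 1705 MG without Gfap, and of the 21 Ptbp1-KO MG with Gfap, 3 had Socs3, against 3.53% of 1163. Stat3 was present in 6 of the 15 and 10 of the 21, against 15.4% and 19.4% of the other MG. Serpina3n was present in 2 of the 15 and 1 of the 21, although it occurred in just 3 and 4 MG in all. Lcn2 was present in none of either set. The MG with Gfap were deeper than those without, with medians of 3788 against 3332 UMIs in Ptbp1-Ctrl and 5035 against 4171 in Ptbp1-KO, and the part of depth in these shares was not tested. Lgals3 was present in 1 of the 15 and 4 of the 21 MG with Gfap, against 8.50% and 25.4% of the others. Of the astrocyte markers, Pax2 was in 0 of the 15 and 1 of the 21 MG with Gfap, against 1 of 1705 and 0 of 1163 without. Gja1 was in 0 and 1, against 0 and 1 of the others, and S100b was in 1 of each set, against 1.47% and 1.98% of the others, with 8 UMIs in the Ptbp1-KO cell. These are single cells, and the part of astrocytes in the Gfap UMIs was not tested.

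Counted per cell at 1000 UMIs, at least 1 of the 10 genes was detected in 48.7% of Ptbp1-Ctrl MG (46.3 to 51.1) and 54.0% of Ptbp1-KO MG (51.1 to 56.8), Vim accounting for most of it. Without Vim the shares were 21.5% (19.5 to 23.5) and 27.5% (25.0 to 30.2). At least 2 of the 10 were found together in 8.599% of Ptbp1-Ctrl MG (7.295 to 10.05) and 12.11% of Ptbp1-KO MG (10.29 to 14.11), with intervals apart. Without Vim, at least 2 were found together in 2.526% and 3.069%, with overlapping intervals. At least 3 of the 10 were found together in 0.902% and 1.02% of the MG, with overlapping intervals.

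**Figure D2:**
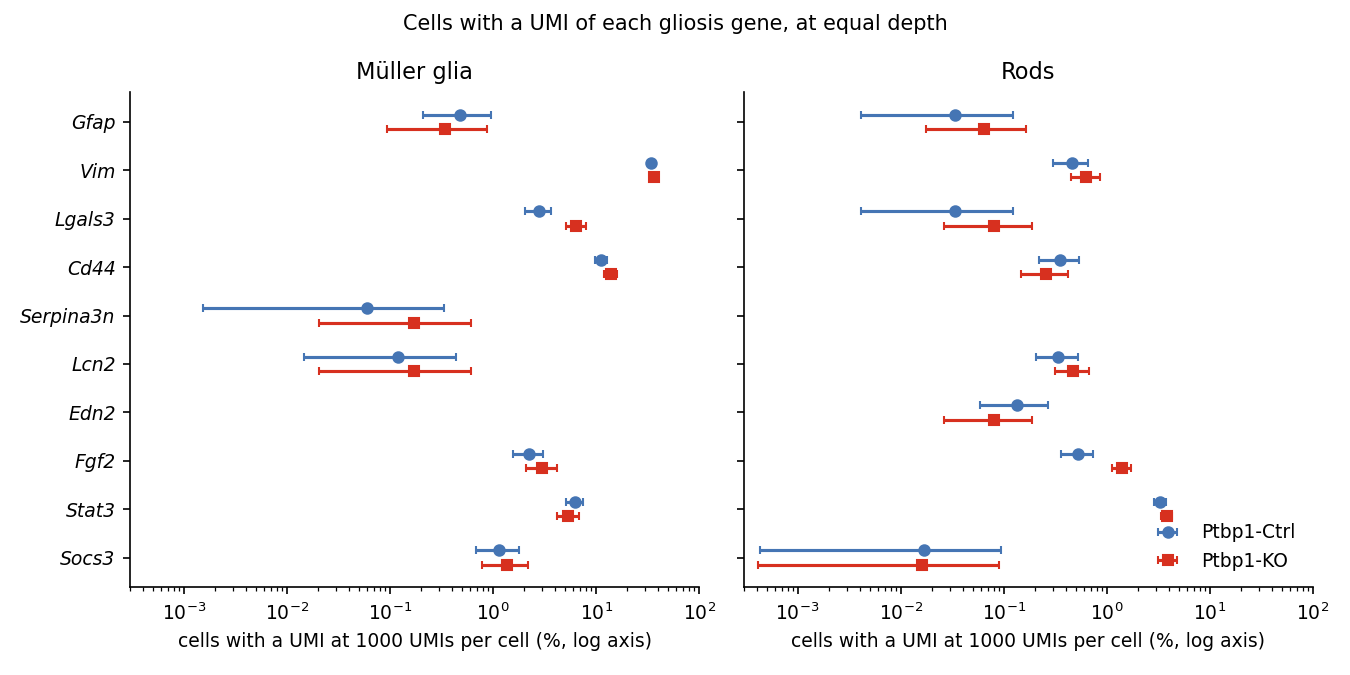
Share of MG (left) and rods (right) with a UMI of each gliosis gene after each cell was thinned to 1000 UMIs, in percent on a log axis, with exact 95% Clopper-Pearson intervals for the Ptbp1-Ctrl (blue circles) and Ptbp1-KO (red squares) library. Shares of 0 are not drawn. Among MG only the intervals of Lgals3 lie apart (2.77% and 6.39%), and among rods only those of Fgf2 (0.525% and 1.39%).

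The MG of the authors' cell table fell into 3 clusters, numbered 4, 16 and 22, each with cells of both libraries. Cluster 4 held 1386 Ptbp1-Ctrl and 994 Ptbp1-KO cells, and there Lgals3 was at 30.3 and 83.0 CPM, a log2 ratio of 1.45 (1.18 to 1.73). In cluster 22 (89 and 54 cells) Lgals3 gave 9 and 14 UMIs, 17.2 and 37.5 CPM, a log2 ratio of 1.13 (-0.18 to 2.51). In cluster 16 (245 and 136 cells) it gave 2 and 4 UMIs, too few to compare. The Vim levels of the libraries overlapped in each of the 3, at 532 and 528 CPM in cluster 4, 83.6 and 75.5 in cluster 16 and 288 and 289 in cluster 22. Gfap gave 24 and 27 UMIs in cluster 4, a log2 ratio of 0.34 (-0.51 to 1.19), and 2 and 2 UMIs in cluster 16. In cluster 22 it gave 0 and 6 UMIs, which gives no ratio but a lower limit of 0.72 for the log2 ratio, from few UMIs. Cluster 16 stood apart in identity: its cells were shallow (medians of 1314 and 1715 UMIs) and held less Glul than cluster 4 (2177 and 2145 CPM against 10506 and 10652).

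**Figure D3:**
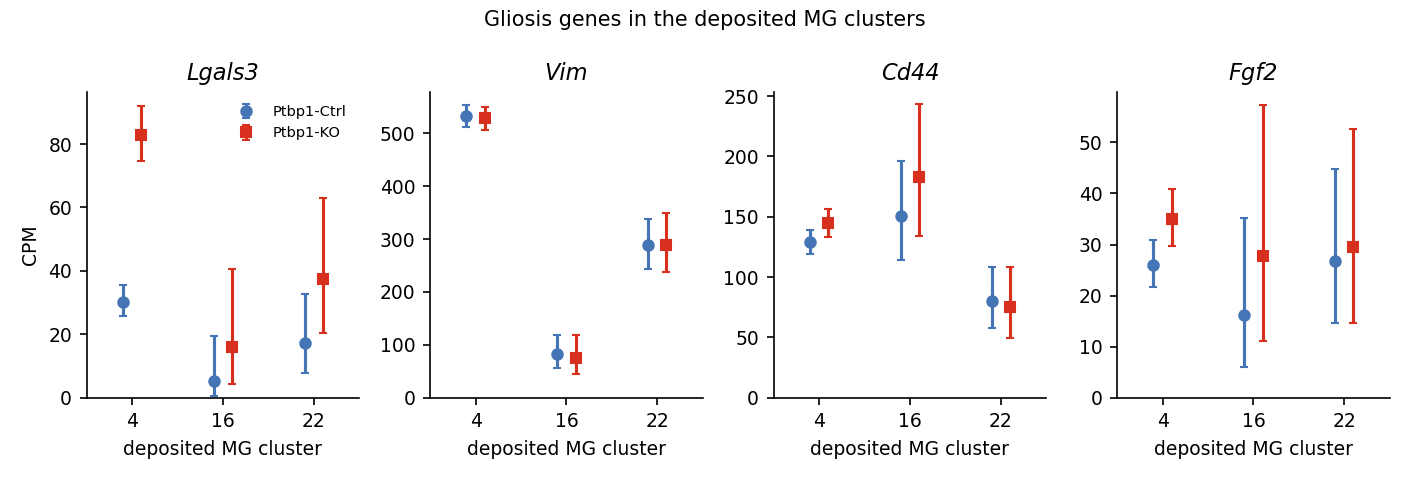
CPM of Lgals3, Vim, Cd44 and Fgf2 in the 3 deposited MG clusters, with exact 95% Poisson intervals, in the Ptbp1-Ctrl (blue circles) and Ptbp1-KO (red squares) library; each axis starts at 0. Lgals3 is higher in Ptbp1-KO in cluster 4 (30.3 and 83.0 CPM), while the Vim values of the libraries lie on top of each other in every cluster.

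Rod RNA differed between the libraries, in MG and in the other large types. The median log2 ratio of the rod markers was -0.41 in MG and -0.18 in rods. It was -0.16 in cones, -0.30 in bipolar cells and -0.26 in amacrine cells, and the cause was not tested. All 8 rod markers were lower in the Ptbp1-KO MG, from Nrl at a log2 ratio of -0.50 to Gnat1 at -0.11, with none past 1.5-fold, and their sum was 7019 CPM in the control and 5483 CPM in the knockout. With the library's own RNA profile subtracted until the rod markers fell to 0, the log2 ratio was 0.58 for Gfap, just under 1.5-fold, and 1.40 for Lgals3. Lcn2 was then at -2.63, and Vim (-0.04), Cd44 (0.11) and Fgf2 (0.37) moved little.

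Across the cell types the 10 genes split by where they were read. MG held 96.4% and 94.4% of all Lgals3 UMIs of the Ptbp1-Ctrl and Ptbp1-KO library, 90.8% and 92.3% of Vim, 85.5% and 83.7% of Cd44, 68.4% and 56.5% of Gfap, and 54.8% and 56.5% of Socs3. They held 41.8% and 33.5% of Fgf2, 20.3% and 17.9% of Stat3, and 25.6% and 6.19% of Lcn2. Over the 5 types with the most UMIs (MG, rods, cones, bipolar cells or BC, and amacrine cells or AC), Vim, Lgals3 and Cd44 were highest in MG, and the interval of MG did not overlap that of the next type in either library. The few horizontal cells (17 and 7) had still more Vim, with 1029 CPM (849 to 1236) in Ptbp1-Ctrl and 723 (492 to 1027) in Ptbp1-KO, with the log2 ratio at -0.51 (-1.13 to 0.07). Gfap was highest in MG as well, but its interval overlapped that of cones, where 1 and 2 UMIs were counted.

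Socs3 was highest in cones, with 56 UMIs (32.1 CPM, 24.2 to 41.7) in Ptbp1-Ctrl, apart from MG, and 22 UMIs (15.4 CPM, 9.67 to 23.4) in Ptbp1-KO, where it overlapped MG. The cone level was lower in Ptbp1-KO, with a log2 ratio of -1.06 (-1.84 to -0.32). In cones this was the 1 gene of the 3 with at least 20 UMIs that was at least 1.5-fold lower, where 5.51% of all genes were, and none was higher, where 8.01% were. Stat3 was spread over the retina: in Ptbp1-Ctrl it ran from 61.5 CPM in BC and 57.3 in cones through 53.7 in MG to 36.7 in rods and 31.7 in AC, with BC, cones and MG overlapping in turn. In Ptbp1-KO cones it was highest, at 83.5 CPM (69.2 to 99.9), apart from MG, and its ratio in cones was 0.54 (0.15 to 0.94). Fgf2 was highest in AC of Ptbp1-Ctrl at 39.9 CPM (31.5 to 49.8), apart from MG, while in Ptbp1-KO the intervals of AC (32.1 CPM, 26.7 to 38.3) and MG overlapped. Lcn2 was highest in cones (4.58 and 7.72 CPM), but the cone interval overlapped that of the next type, MG in Ptbp1-Ctrl and rods in Ptbp1-KO.

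In rods 3 of the 6 genes with at least 20 UMIs were at least 1.5-fold higher in Ptbp1-KO, where 14.2% of all genes were, and none was lower, where 2.13% were. They were Fgf2, Lcn2 with 38 and 68 UMIs (log2 ratio 0.69, 0.09 to 1.30), and Gfap with 6 and 14 UMIs (1.07, -0.40 to 2.74). In BC 1 of 5 was higher (Socs3, with 7 and 14 UMIs), where 6.22% of genes were, and none was lower, where 3.64% were. In AC 1 of 4 was lower (Vim, with 30 and 32 UMIs and a log2 ratio of -0.89, -1.65 to -0.12), where 5.12% of genes were, and none was higher, where 6.72% were. Among rods, cones, BC and AC no type had a Lgals3 level over 5 CPM in either library. Lgals3 was under 20 UMIs in each of these. It gave 3 and 12 UMIs in rods (log2 ratio 1.85, -0.04 to 4.31) and 0 and 8 in AC. In BC it gave 0 and 2, and in cones 2 and 1. Retinal ganglion cells gave 1 and 0 UMIs and horizontal cells 0 and 0. Their upper limits, 26.2 and 20.1 CPM and 33.3 and 86.1 CPM, are too high for a comparison with MG.

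**Figure D4:**
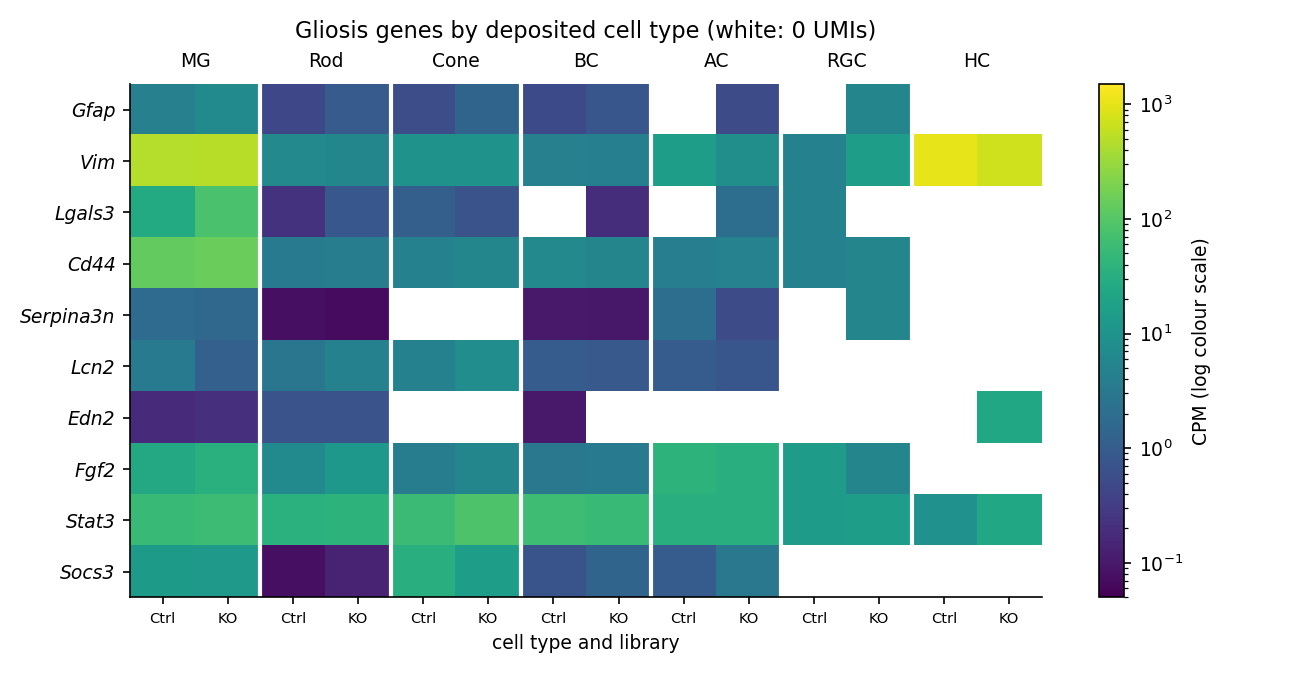
Level of the 10 gliosis genes (rows) in the 7 deposited cell types of the Ptbp1-Ctrl (Ctrl) and Ptbp1-KO (KO) library (columns), as CPM on a log colour scale; white cells had 0 UMIs. Lgals3 and Cd44 are brightest in MG, Vim in MG and horizontal cells, Socs3 in cones and MG, and Stat3 is at 9.03 CPM or more in every type; the single coloured Edn2 field in horizontal cells is 1 UMI.

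The pathways around these genes were read as lists, in MG and with the same minimum of 20 UMIs. Each count past 1.5-fold below, of pathway genes and of markers, stands beside 7.16% higher and 4.92% lower over all 14016 genes. Pan-reactive glial genes, of which 5 of 13 are among the 10 genes above, had 8 members with enough UMIs, 1 higher (Gfap), 1 lower (Lcn2) and a median of 0.19. S1pr3, a sphingosine phosphate receptor, had a log2 ratio of 0.46 (487 and 575 UMIs), and Osmr, the oncostatin M receptor, one of -0.30 (153 and 107). Steap4 and Timp1, both strongly induced in reactive astrocytes, had at most 4 UMIs in either library. Among genes associated with inflammation, 2 of 7 were higher, none was lower and the median was 0.25. These were Fkbp5, a co-chaperone of steroid receptors that glucocorticoids induce, with 312 and 642 UMIs and a log2 ratio of 1.26 (1.06 to 1.46), and H2-T23, a class I molecule, with 20 and 34 UMIs and 0.98 (0.14 to 1.86). H2-D1, the classical class I heavy chain, went the other way at -0.58 (585 and 336 UMIs), just short of 1.5-fold, with Serping1 at -0.41. The lower H2-D1 was not particular to MG, since it was at least 1.5-fold lower in rods, cones, BC and AC. C3, the complement component taken as the hallmark of that state, had 2 UMIs in the control and 0 in the knockout. Among genes associated with ischemia, 1 of 4 was higher, the gp130 cytokine gene Clcf1 (34 and 44 UMIs, 0.59, -0.09 to 1.28), none was lower and the median was 0.18, with Ptx3 at 0.28, S100a10 at 0.07 and Sphk1 at -0.20.

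The gp130, JAK and STAT list had 15 members with enough UMIs, and none passed 1.5-fold in either direction, with a median of 0.06. Cntf, ciliary neurotrophic factor, was at 0.36, while Pias3, an inhibitor of STAT3, was at -0.38 and Il6st, which encodes gp130 itself, at -0.31 (701 and 487 UMIs). Among endothelin and FGF genes 2 of 14 were higher, 1 was lower and the median was 0.12. Edn1, the endothelin made in many tissues, had 24 and 58 UMIs and a log2 ratio of 1.49 (0.78 to 2.24), and Fgf1 had 29 and 38 UMIs and 0.61 (-0.13 to 1.36). Etv4, a transcription factor downstream of FGF receptors, had 25 and 9 UMIs and -1.26 (-2.54 to -0.11), and the feedback inhibitor Spry2 was at -0.31.

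Other glial filaments and injury genes had 2 of 14 higher, 3 lower and a median of 0.03. Anxa1, which encodes the phospholipid-binding annexin A1, had 756 and 1408 UMIs and a log2 ratio of 1.11 (0.98 to 1.24), and Ccn2, a matricellular target of YAP, had 541 and 699 and 0.59 (0.42 to 0.75). Synm, which encodes the filament protein synemin, had 69 and 34 UMIs (-0.81, -1.44 to -0.19), and Nes, which encodes nestin, 21 and 8 (-1.18), with an interval from -2.56 to 0.06 that spans 0. Lgals1, which encodes galectin-1 and was named after its values were seen, had 228 and 115 UMIs and -0.77 (-1.11 to -0.44), a direction opposite to that of Lgals3. The dissociation response had 14 members with enough UMIs, none higher, 1 lower (Atf3, 54 and 27 UMIs, -0.78) and a median of 0.09, with Nfkbia at 0.56, Fosb at 0.33 and Zfp36 at -0.25.

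**Figure D5:**
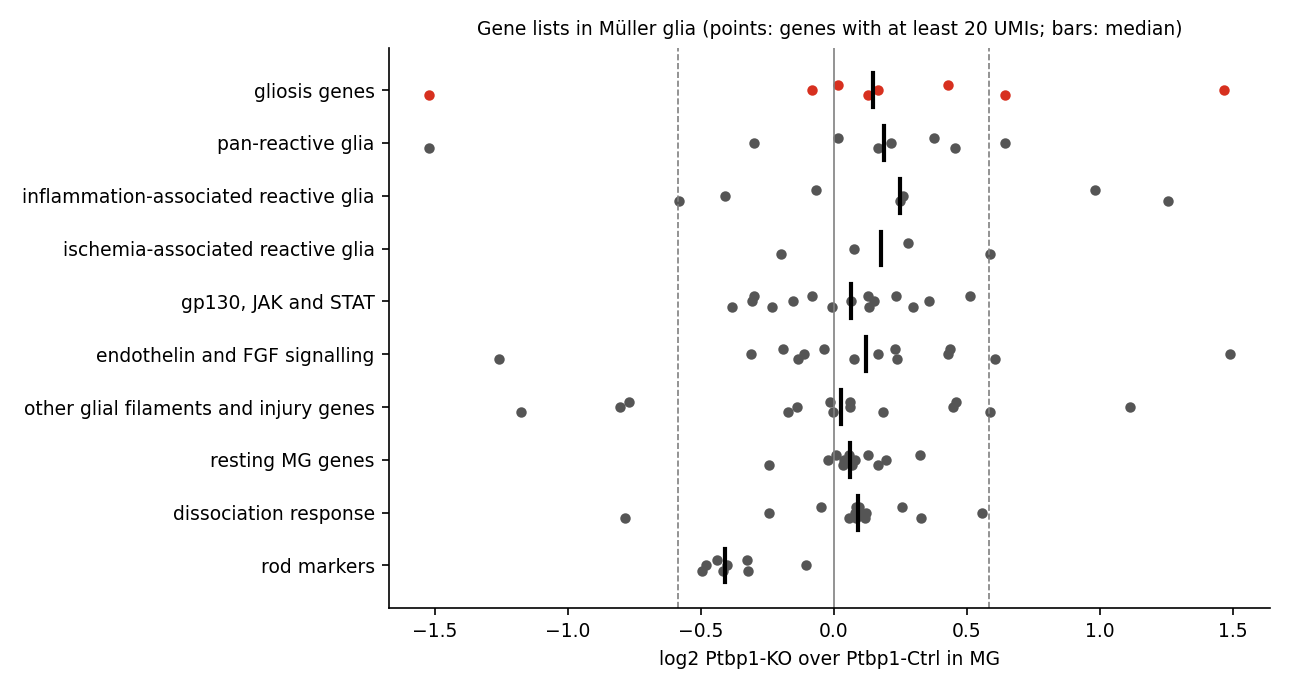
Log2 of Ptbp1-KO over Ptbp1-Ctrl in MG for each gene with at least 20 UMIs (points, red for the gliosis genes), grouped by list; black bars are list medians and dashed lines mark 1.5-fold. The rod markers have a median of -0.41, and the medians of the other lists drawn lie between 0.03 and 0.25.

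Markers of other cell types were read in the same MG, where 7.16% of all genes were at least 1.5-fold higher and 4.92% lower. Astrocyte markers summed to 429 and 508 CPM, with 4 of 7 having enough UMIs, 1 higher (S100b, 26 and 36 UMIs, 0.69) and a median of 0.25, and with Pax2 at 1 UMI in each library and Gja1 at 0 and 2. Endothelial and pericyte markers summed to 1580 and 1586 CPM, nearly all from Flt1 (-0.11) and Kdr (0.14), with Cldn5 at 9 and 4 UMIs and Rgs5 at 0.61 the 1 of 5 that was higher. Retinal pigment epithelium markers had 1 of 3 higher (Rgr, 40 and 60 UMIs, 0.80), with Rpe65 at 2 and 3 UMIs and Tyrp1 at 0 in both. Cone markers had a median of 0.13 and none of 7 past 1.5-fold (Arr3 at 0.52, Opn1sw at -0.40). Bipolar cell markers had 1 of 8 lower (Vsx1, 54 and 16 UMIs, -1.54) and a median of -0.02. Amacrine cell markers had 2 of 5 higher (Gad2 at 1.22, Gad1 at 0.95) and a median of 0.42. Retinal ganglion cell markers had 1 of 4 higher (Thy1, 0.82), 1 lower (Sncg, -1.01) and a median of 0.45, and horizontal cell markers had 1 of 2 higher (Calb1, 0.89) and a median of 0.38. The part of these transcripts in the member values was not tested.

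The genes whose levels ran most like those of the members were found over 42 sums of cluster and library, as Pearson's r of log2(CPM + 1) against 13360 genes. The sums share their library and differ in depth, so r is a description. For Lgals3 they were 2310001H17Rik (0.94), Apoc1 (0.93) and Aqp5 (0.93), and for Vim they were Cd1d1, Clic1 and Rlbp1 (0.91 each). Cd44 ran with Mgst1, Ahnak and Slc7a2 (0.90 each). Fgf2 had lower values, with Fkbp5 at 0.83, Colgalt2 and Antxr1 at 0.79, and Stat3 had the lowest, with Pnpla7 at 0.73, Ephx1 at 0.70 and Map2k6 at 0.69. In MG, 2310001H17Rik had 169 and 188 UMIs, Aqp5 151 and 103, and Apoc1 194 and 311.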

How the data were processed

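Single-cell libraries from the retinas of 1 Ptbp1-Ctrl and 1 Ptbp1-KO mouse were grouped by the genotype in the labels. The authors aligned reads to mm10 with Cell Ranger 7.0.1 and filtered cells in Seurat 4 (over 200 and under 5000 genes, over 700 and under 10000 UMIs, under 20% mitochondrial), and all 30943 deposited cells met this. The deposited table holds raw UMI counts, with no normalization, and the deposited cell table holds total counts, the percent of mitochondrial UMIs, clusters and cell types named by the authors, used as given. A further 2 columns of per-cell values were not used. The annotation and the intron and strand settings were not given in the sources used here, and no doublet caller was run.

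UMIs were summed per library and cell type and given as CPM with Poisson intervals. Log2 ratios compare Ptbp1-KO with Ptbp1-Ctrl and have conditional binomial intervals, and shares have Clopper-Pearson intervals (all exact, 95%). Counts of genes past 1.5-fold and medians use genes with at least 20 UMIs over both libraries. Shares at equal depth used cells thinned to 1000 UMIs, without those that had fewer (57 and 11 MG, 4155 and 3126 rods). A count of 0 is given with the share that 3 counts would make. The study compared cells by a Wilcoxon test, which was not used, since cells of 1 mouse are not replicates. The ratio and its interval were tried on simulated counts with known folds, which checks the computation and not a difference between the genotypes. Tools were Python 3.11.15, numpy 2.4.6, scipy 1.17.1, pandas 2.3.3, matplotlib 3.10.9 and, for TMM factors, edgeR 4.0.16 in R 4.3.3. Gene positions are from GENCODE (mm10) and promoters from RefSeq, which matched all 10 genes. Cxcl10 and Gjb6 of the lists were not analysed here.

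The 10 genes and all lists were chosen with earlier results of these data known. From each list the genes with the highest and lowest ratios were named, up to 4, with defining markers at or near 0, and for each member with at least 200 UMIs in MG the 3 genes most like it; a few genes of the lists are not reported here. Alternatives were TMM scaling, thinned cells, equal weight per cell, the largest MG cluster, MG without high rod RNA, free RNA subtracted, trimmed cells, other minimums and 2 added after seeing the data.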

Additional observations from a re-analysis of the deposited data

Results flagged for a closer look

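A pair of members moved in opposite directions in different cell types, with counting intervals on either side of 0. Lcn2 had a log2 ratio of -1.52 in MG and 0.69 in rods, a difference of -2.21, and in MG it rested on 20 and 6 UMIs in 8 and 5 cells. With MG thinned to 1000 UMIs the MG ratio was -0.08, and with free RNA subtracted it was -2.63. Stat3 had a log2 ratio of 0.54 in cones and -0.17 in BC, a difference of 0.71, and in BC the interval (-0.34 to just under 0) nearly reached 0. Neither difference was tested, since each genotype had 1 library. No group had enough libraries for a search for outlying ones.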

How the results depend on the processing

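No paired analysis was possible because each genotype had 1 library, and for the same reason no replicate could be left out. The median log2 ratio of the members in MG was 0.15, and 0.32 without the 1% of MG with the most UMIs of each gene, where 6 members kept a value. The count at least 1.5-fold higher was 2, and 1 with cells thinned to 1000 UMIs, in the largest MG cluster, with free RNA subtracted (30.9% and 26.4% of MG UMIs removed) and with at least 200 UMIs, Lgals3 being that gene in each. The count at least 1.5-fold lower was 1, and 0 with thinned cells, without that 1% of MG and with at least 200 UMIs. Thinning left Lcn2 at -0.08, Stat3 at -0.18, Gfap at 0.09 and Serpina3n at 2.09, and without that 1% of MG Socs3 was at 0.45. Of 117 values under alternatives, 105 stayed within counting error or, for the counts of genes, within 1.5 times, 12 moved further and 0 reversed a ratio whose interval excluded 0. The median was judged by the interval of Cd44, a member next to it. Genes with few UMIs have intervals too wide for this to show stability. With equal weight per cell, Edn2 went from 0.22 to -0.98 and Serpina3n from -0.24 to 0.80, both still within. Over the alternatives that gave a value, Vim stayed between -0.04 and 0.04, Cd44 between 0.11 and 0.31, Fgf2 between 0.37 and 0.59, and Gfap between 0.09 and 0.85. Few UMIs limit Gfap, Serpina3n, Lcn2 and Edn2 in MG.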
